A study of Sus scrofa with 48 samples.

Results

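Cytosolic ribosomal proteins were described in the liver of growing Large White barrows from 2 lines divergently selected on residual feed intake (RFI). RFI is the part of feed intake that average daily gain and backfat thickness do not account for. Members were all genes whose name on the array began with RPL or RPS and a digit, leaving aside the RPS6 kinases. They numbered 81 of the 12535 gene names on the array, with 46 names of the large subunit and 35 of the small subunit, and were measured by 285 probes of 60 bases. A probe was tested when its signal was well above background on at least 12 of the 48 arrays. This held for 278 member probes of 79 names, of which 275 had such a signal in all 48 pigs. The other 7 probes, among them the only ones of RPL13 and RPS4X, were well above background on 0 to 11 arrays. The names included 6 pseudogene names and RPS19BP1, which encodes a protein that binds RPS19 and is not part of the ribosome. The reference annotation gave a symbol for 170 of the 285 probes. It named the RPL10L probe RPL10, and called RPS4 by the symbol RPS4X.

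One array was hybridised per pig in a single colour, with 12 pigs in each of 4 groups: low RFI or high RFI line (8 generations of selection), each fed a low-fat low-fiber (LF) or a high-fat high-fiber (HF) diet from 74 days of age. All pigs were castrated males of the same breed, and the liver was taken 2 h after a meal. Each line was a single selected population, so that selection on RFI and any other divergence between the lines cannot be told apart. Levels are given as log2 intensity relative to the median tested probe of the array. The brightness of a probe depends on its sequence as well as on its transcript, so levels of different probes were not read as amounts of mRNA.

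Ribosomal proteins form, with the ribosomal RNAs, the small subunit that decodes the mRNA and the large subunit that joins the amino acids. Most are needed in 1 copy per ribosome. Their mRNAs are abundant in liver, which makes most plasma proteins, and share a pyrimidine tract at their 5′ end through which mTOR signalling adjusts their translation after a meal. Ribosomal protein genes have many processed pseudogenes in mammalian genomes, and a probe can hybridise with more than 1 of these transcripts. In whole liver, fewer cells of a type and less RNA per cell cannot be told apart. The tissue label was matched by hepatocyte markers, 8 of 8 of which were tested, with a list mean of 9.46 to 10.1 in all pigs.

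Many members carried several probes, so that the same gene name was read more than once. Whether the probes of a name read the same mRNA was not tested. There were 2 or more tested probes for 44 names and 1 for 35, and RPL5, RPL7, RPL6, RPS4 and RPL10A carried the most, with 19, 17, 15, 15 and 11. A probe was called bright when it lay within 1 log2 unit of the brightest probe of its gene, and dim otherwise, which gave 139 bright probes, 104 dim probes and 35 probes that were alone for their gene. The brightest and the dimmest probe of a gene differed by a median of 3.68 log2 units, and by 11.9 for RPS23. The members of brightest signal were RPL27A, RPL32 and RPS29 (10.04, 9.94 and 9.82), and those of faintest signal included RPL22L1 and RPS26P11 (-1.01 and -0.98).

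The sequences of the probes that carried the line differences are shown first, because each value depends on the sequence of its probe. For RPL6, probes named by their first base on the mRNA given in the annotation of the array, are shown that bound the stretch in which the lines differed, and capitals mark the longest run of bases, 37, that the probes at 692 and 708 had in common.
RPL6 at 617: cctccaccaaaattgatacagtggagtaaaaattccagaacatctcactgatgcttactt
RPL6 at 692: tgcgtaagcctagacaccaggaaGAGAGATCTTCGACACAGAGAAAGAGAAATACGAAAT
RPL6 at 708: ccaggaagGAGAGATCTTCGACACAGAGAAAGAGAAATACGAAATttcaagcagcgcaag
Before this run both probes also held the 7 bases ccaggaa, which met the run directly in the probe at 692 and were separated from it by 1 further base in the probe at 708. The longest run of bases common to the probes at 617 and 692 was 5 bases long. For RPL38, RPL35 and RPL14, a bright probe is shown beside 30 bases of the dim probe past the cut-offs, and for RPS10 the dim probe alone. Capitals in these mark AATAAA, the letters of the common polyadenylation signal found near the 3′ end of mRNAs.
RPL38 bright: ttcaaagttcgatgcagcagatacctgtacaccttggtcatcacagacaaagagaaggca
RPL38 dim: tcccagtagacaAATAAAgccatctctctc
RPL35 bright: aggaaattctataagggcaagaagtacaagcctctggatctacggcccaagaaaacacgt
RPL35 dim: ctaaactgcttggtctggattttgttgtct
RPL14 bright: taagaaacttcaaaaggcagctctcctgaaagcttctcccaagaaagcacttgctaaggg
RPL14 dim: attccagttagcactcatgagtAATAAAct
RPS10 dim: tctttgtaatcaAATAAAcacaggacaatt
The letters AATAAA were found in 10.3% of all 60305 probes of the array, and their reverse complement TTTATT in 4.32%. Among member probes, AATAAA was found in 41 of 139 bright, 8 of 104 dim and 1 of 35 single probes, and TTTATT in 1 of 278. AATAAA was found in 5 of the 21 member probes past the line cut-offs described next.

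The first comparison asked which members differed between lines over both diets. Pigs from the low RFI line over-expressed 20 member probes and under-expressed 1, at P under 0.01 and a fold-change over 1.1 (limma). These 21 probes belonged to 7 names: RPL6 (9 probes), RPL14 (6), RPL35 (2), and RPL38, RPS13, RPS25 and RPS10 with 1 each. Over all 45236 tested probes, 3.42% were over-expressed and 3.49% under-expressed. The corresponding share of member probes over-expressed was 7.19%. With P adjusted over all tested probes (P-BH) under 0.05, 19 member probes were higher and 1 was lower, beside 3.93% of all tested probes in either direction. The called probes were not independent of each other, since the RPL6 probes overlapped and those of RPL35 had the same sequence. The remaining 257 member probes, including every probe of 72 of the 79 names, did not pass, with line effects between -0.37 and 0.27.

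The called probes were then split by brightness. Of 104 dim probes, 13 were higher and 1 was lower in the low RFI line (13.5%), and 9 of these 14 were RPL6 probes. Of 139 bright probes, 6 were higher (4.32%), 5 of them of RPL14. Over all tested probes, 3.42% were higher and 3.49% lower, so that the bright share was close to that of the array. Dim was defined within a gene and does not mean a faint signal. The 9 RPL6 probes had mean levels of 5.08 to 7.38, above the array median of 0. The difference between these classes was not tested, because probes of a gene are not replicates.

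**Figure D1:**
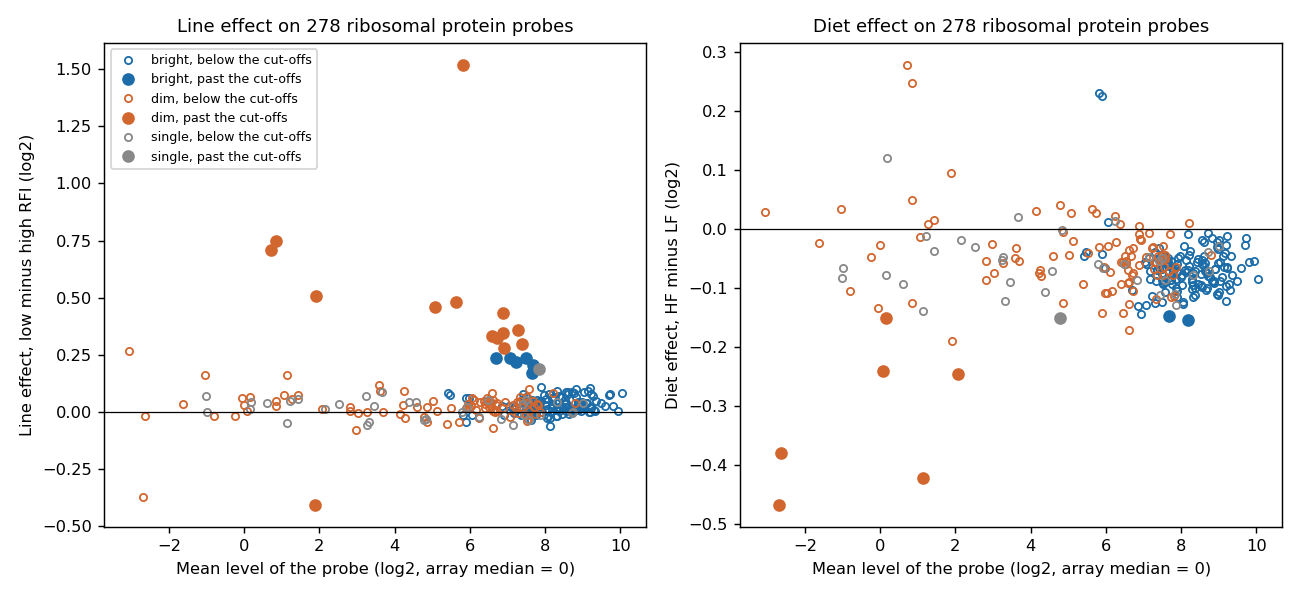
Effects of line (left, low minus high RFI) and diet (right, HF minus LF) on the 278 tested ribosomal protein probes, in log2 units, against the mean level of each probe (log2, array median at 0). Blue points are bright, orange dim and grey single probes, and filled points passed P under 0.01 with a fold-change over 1.1. Filled points for line lie above 0 except the RPS10 probe at -0.41, and those for diet all lie below 0.

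RPL38, a small protein of the large subunit known from the mouse for its role in the patterning of the skeleton, gave the largest line difference of all members, and only on 1 of its 2 probes. On the dim probe, pigs from the low RFI line ranged from 4.75 to 7.41 with a median of 6.56, and pigs from the high RFI line from 4.54 to 6.80 with a median of 4.89. The values fell into 2 sets with none between 5.24 and 6.25. The upper set held 22 of 24 low RFI pigs and 3 of 24 high RFI pigs. Here and for RPL6, the probes were not matched to the genome or to pseudogenes, and the pigs' own sequences under them were not analysed here. The means were 6.57 ± 0.66 (SD, n = 24) and 5.05 ± 0.65 (SD, n = 24), which gave a log2 FC of 1.52 ± 0.19 (SE; P-BH of 2.66e-07, limma). It was 1.75 with the HF diet and 1.29 with the LF diet, with an interaction P of 0.23 (limma). The bright probe ranged from 7.74 to 8.43 in the low RFI line and from 7.91 to 8.34 in the high RFI line, so that the lines overlapped throughout. Its log2 FC was -0.06 (95% interval from -0.15 to 0.03, limma).

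RPL6, a protein on the outer surface of the large subunit, differed between lines on 9 of 15 probes. These 9 were all of the probes annotated as starting between bases 617 and 692 of its mRNA. Their log2 FC ranged from 0.28 to 0.48 (SE 0.06 to 0.09), with P-BH from 0.000256 to 0.0122 (limma). On each of the 9 probes, 23 or 24 of 24 low RFI pigs exceeded the high RFI median. The 6 other probes, of which 4 started at bases 387, 708, 730 and 855 and 2 had no position in the annotation of the array, had log2 FC from 0.02 to 0.06, and none passed the cut-offs (P-BH from 0.58 to 0.92, limma). The probe at 708, which held 44 bases of the probe at 692 with 1 further base among them, had a log2 FC of 0.06 (95% interval from -0.03 to 0.15, limma), against 0.30 (from 0.19 to 0.41) at 692.

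The spread of the 9 RPL6 probes also differed by line. Their SD was 0.10 to 0.15 in the low RFI line and 0.25 to 0.41 in the high RFI line, against 0.12 to 0.20 and 0.16 to 0.21 for the 6 other probes. The mean of the 9 probes minus the mean of the 6 others was taken in each pig as a description, since the stretch was chosen after its values were seen. All 24 pigs from the low RFI line lay between -0.81 and -0.64. Of the 24 pigs from the high RFI line, 5 lay within this range (-0.76 to -0.68), 16 between -1.16 and -0.96, and 3 between -1.73 and -1.55. These 3 pigs were all fed the LF diet. The same 3 pigs were the lowest when the difference was computed from the probes at 617 and 622 alone and from the probe at 692 alone. These probes were among the 9, and the same 6 others were subtracted each time, so that this likeness was partly built in. The mean difference between lines was 0.27 on the first scan day and 0.40 on the second, each with 12 pigs per line.

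**Figure D2:**
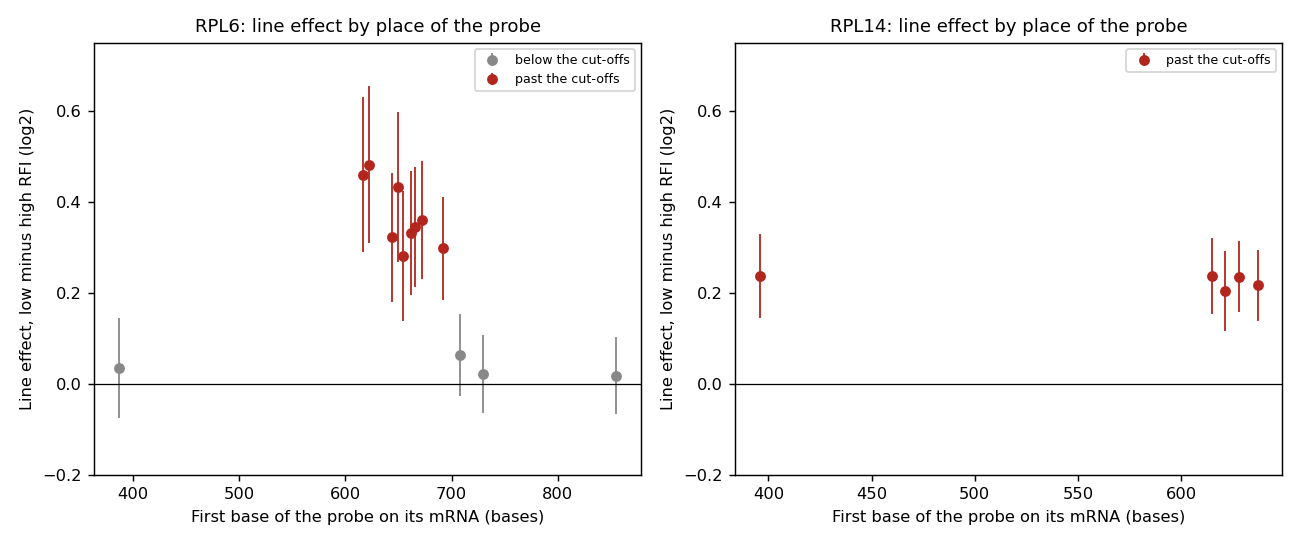
Line effect (low minus high RFI, log2, with 95% intervals from limma) against the first base of the probe on its mRNA, for the 13 RPL6 probes (left) and the 5 bright RPL14 probes (right) with a position. Red points passed the cut-offs. RPL6 probes starting from 617 to 692 lie at 0.28 to 0.48 and the 4 outside at 0.02 to 0.06, whereas the RPL14 probes lie at 0.20 to 0.24 in both places.

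RPL14, also a surface protein of the large subunit, differed between lines on 6 of 7 probes. The 5 bright probes, at base 396 and at bases 615 to 637, had log2 FC from 0.20 to 0.24 (SE 0.04 to 0.05), with P-BH from 7.88e-05 to 0.00226 (limma). Their mean ranged from 6.997 to 7.53 with a median of 7.35 in the low RFI line, and from 6.82 to 7.41 with a median of 7.11 in the high RFI line. The lines overlapped, and 23 of 24 low RFI pigs exceeded the high RFI median. A dim probe at base 1389 of another transcript record than that of the bright probes, at a mean level of 1.92, had a larger log2 FC of 0.51 ± 0.08 (SE, P-BH of 3.92e-05, limma), and ranged from 1.15 to 2.57 in the low RFI line and from 1.25 to 2.24 in the high RFI line. The seventh probe, at a level of 1.15, had a log2 FC of 0.16 ± 0.13 (SE) and did not pass.

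RPL35, which borders the exit of the tunnel for the growing chain, differed between lines on its 2 dim probes and not on its bright one. The 2 dim probes had the same 60 bases, and the difference between their values had an SD of 0.10 over the 48 pigs. Their mean ranged from -0.25 to 1.89 with a median of 1.23 in the low RFI line, and from -0.68 to 1.56 with a median of 0.27 in the high RFI line. The ranges overlapped, with 21 of 24 low RFI pigs above the high RFI median on each probe. Their log2 FC were 0.75 ± 0.15 and 0.71 ± 0.15 (SE), with P-BH of 0.00146 and 0.00205 (limma). The bright probe, 8.00 log2 units brighter than the dimmer of these, had a log2 FC of -0.01 (95% interval from -0.10 to 0.09, limma).

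The small subunit had 3 called probes. RPS10, a protein of the head of the small subunit, was under-expressed in the low RFI line on only 1 of its 6 tested probes, a dim one at base 1338. This probe ranged from 1.19 to 2.44 with a median of 1.62 in the low RFI line and from 1.46 to 2.54 with a median of 2.18 in the high RFI line. The ranges overlapped, 3 of 24 low RFI pigs exceeded the high RFI median, and the log2 FC was -0.41 ± 0.10 (SE, P-BH of 0.00628, limma). The brightest RPS10 probe had a log2 FC of -0.02 (P-BH of 0.93, limma) and the dimmest one 0.05 (P-BH of 0.88, limma). Over all 6 RPS10 probes the median line effect was -0.04. RPS13 was over-expressed on 1 of 2 probes (log2 FC of 0.17 ± 0.04, P-BH of 0.0118, limma), and its other probe, 0.37 log2 units brighter, had a log2 FC of 0.05 (P-BH of 0.55). RPS25, with 1 probe, gave 0.19 ± 0.06 (log2 FC and SE; P-BH of 0.0912, limma). RPS18, in the head of the small subunit, had 4 probes with log2 FC from 0.02 to 0.04 and did not pass on any.

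**Figure D3:**
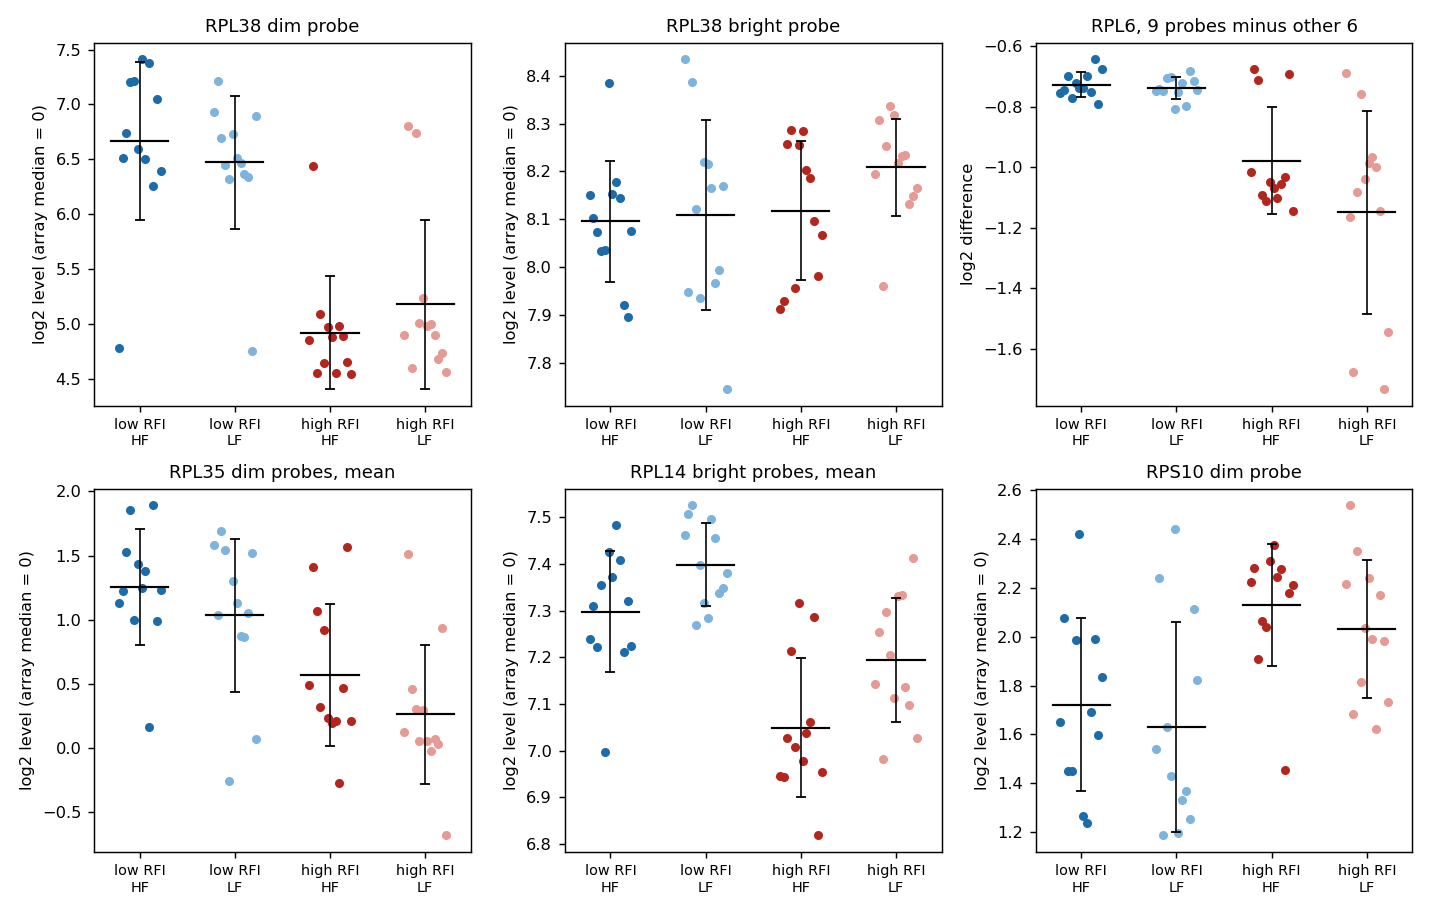
Value of each of the 48 pigs (points, 12 per group) with group mean and SD (black), for 6 readouts in log2 units. The dim RPL38 probe falls into 2 sets with none between 5.24 and 6.25 whereas the bright RPL38 probe overlaps between lines, and the RPL6 difference lies between -0.81 and -0.64 in all pigs from the low RFI line and reaches -1.73 in the high RFI line.

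Among the members with the most probes, RPL6 had line effects from 0.02 to 0.48 over its 15 probes, as described above. The others had small line effects on every probe, so their close values do not show how closely probes read a line difference. RPL5, which binds the 5S RNA, had line effects from -0.04 to 0.04 over 19 probes. RPL7 ranged from -0.02 to 0.06 over 17 probes, RPS4 from -0.01 to 0.07 over 15 and RPL10A, of the L1 stalk, from -0.03 to 0.11 over 11. No probe of RPL5, RPL7, RPS4 or RPL10A passed the cut-offs, although within RPL7 the probes differed in brightness by 8.69 log2 units. In the 5 pairs of member probes of identical sequence, line effects differed by 0.004 to 0.04.

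Brightest and dimmest probe of a gene were then compared in the same pig, a difference that does not depend on how arrays are centred. Among the 44 members with 2 or more tested probes, the difference varied with line for 4 at a P-BH under 0.05 (limma), whereas 2.88% of the 5042 genes of the array with 2 or more tested probes did so. These were RPL38 (-1.58 ± 0.19, P-BH of 2.02e-07), RPL35 (-0.71 ± 0.16, P-BH of 0.0039), RPL6 (-0.44 ± 0.08, P-BH of 0.000255) and RPS13 (-0.11 ± 0.03, P-BH of 0.0116), as log2 values with SE. In all 4 the dimmer probe was the one that was higher in the low RFI line, while the log2 FC of the brightest probe was between -0.06 and 0.05. For diet, 0 of 44 members passed (limma), 6 had an unadjusted P under 0.05, and 0.0198% of the genes of the array passed. An ANOVA without moderated variances also gave 0, with 7 at an unadjusted P under 0.05.

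**Figure D4:**
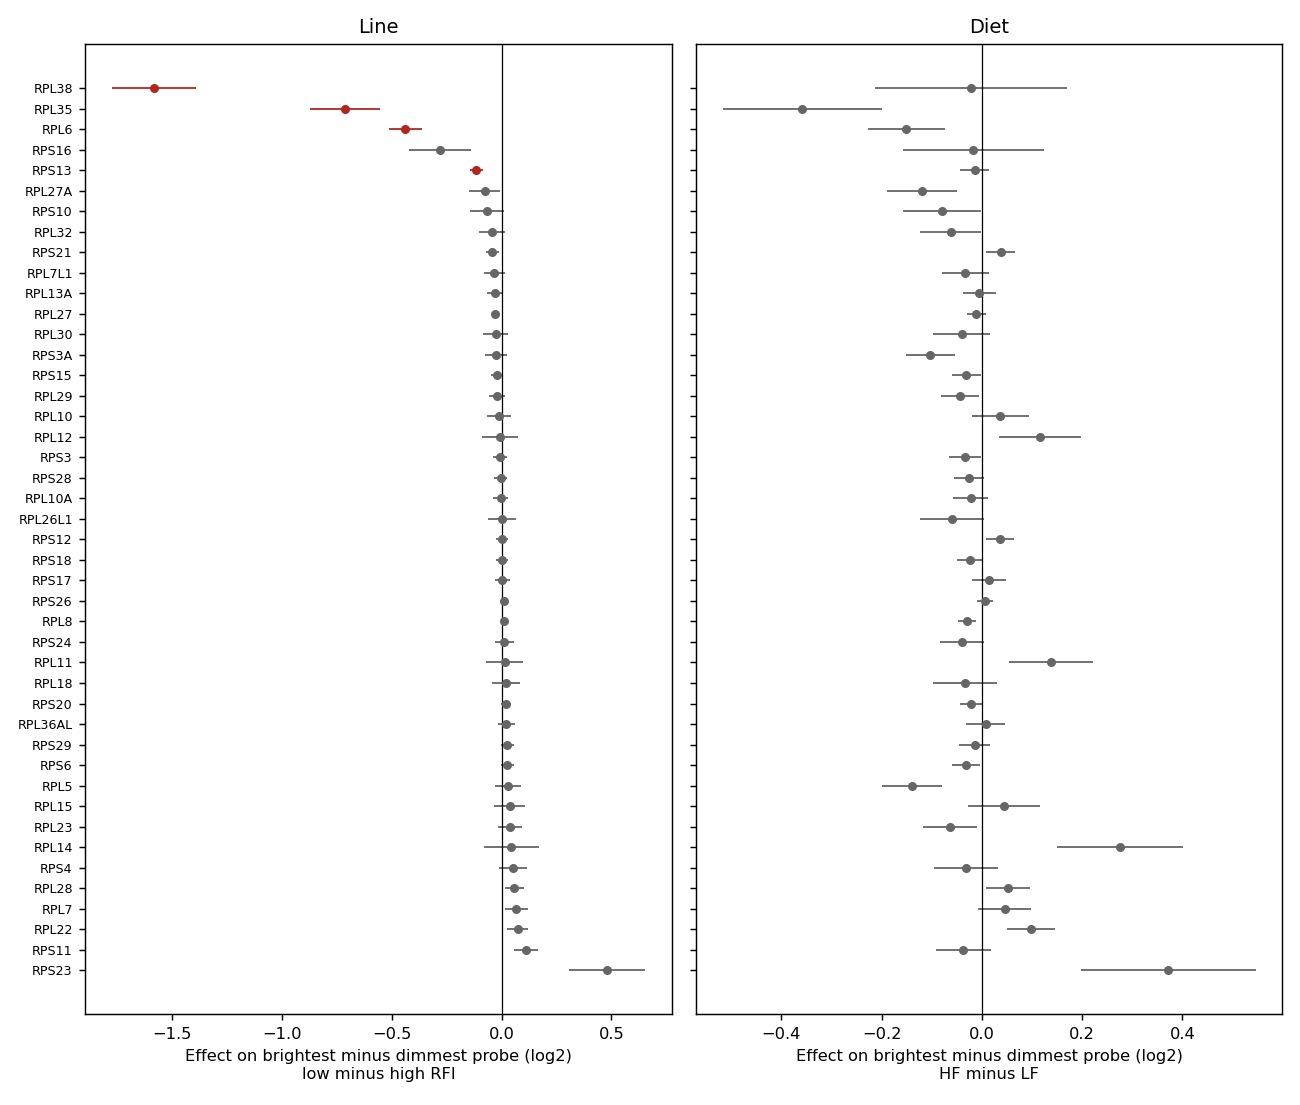
Effect of line (left, low minus high RFI) and diet (right, HF minus LF) on the log2 difference between the brightest and dimmest tested probe of 44 ribosomal protein genes, with SE, ordered by the line effect. Red points have a P-BH under 0.05. They are RPL38, RPL35, RPL6 and RPS13, all on the left panel and all below 0.

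Line effects were next taken within each diet, from the same fit. With the HF diet, 13 of 278 member probes were higher and 2 lower in the low RFI line. Of all 45236 tested probes, 739 (1.63%) were higher and 803 lower. With the LF diet, 17 member probes were higher and 1 lower, and of all tested probes 816 (1.8%) were higher and 923 lower. The RPS10 probe was the lower one with both diets, and the second one with the HF diet was a dim RPS23 probe (log2 FC of -0.70, P-BH of 0.15, limma). The 9 RPL6 probes had log2 FC of 0.19 to 0.35 with the HF diet (P-BH from 0.20 to 0.60, limma) and of 0.37 to 0.61 with the LF diet (P-BH from 0.00381 to 0.0606). The interaction P of these probes was between 0.085 and 0.21 (limma), so that a difference between diets was not shown. The 5 bright RPL14 probes had log2 FC of 0.22 to 0.27 with the HF diet (P-BH from 0.0118 to 0.0349, limma). With the LF diet these were 0.16 to 0.22 (P-BH from 0.0312 to 0.294), so that not all 5 passed the adjustment there. No member probe had an interaction at P under 0.01 (limma and ANOVA). The share of all tested probes was 0.376% (limma), so low that 0 of 278 does not set the members apart. An interaction P under 0.05 (limma) was found for 2 member probes, a bright RPS21 probe and the same RPS23 probe.

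The median line effect over the 278 member probes was 0.03, against 0.005 over all tested probes. It was above 0 for 219 of 278 (78.8%), against 52.5% of all tested probes and 55.7% of those with a mean level of 5 or more. This small shift was 0.07 over the 24 pigs of the first scan day (all tested probes, 0.007), with 248 of 278 above 0. Over those of the second it was -0.003 (all tested probes, 0.001), with 129 of 278 above 0. It was thus not the same on both days, whereas at least 18 member probes were called higher on each day alone.

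The second comparison asked how diet changed the members. With the HF diet, 9 member probes of 6 names were under-expressed (3.24%) and 0 over-expressed at P under 0.01 and a fold-change over 1.1 (limma). Of all 45236 tested probes, 1150 (2.54%) were under-expressed and 937 over-expressed. The share of member probes under-expressed was thus close to that of all tested probes. At a P-BH under 0.05, 1 member probe was lower, and 0.455% of all tested probes passed in either direction. With normexp background correction 5 were lower and 2 higher. Of 9 called probes, 7 had a mean level under 5.

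The probe that passed the adjustment was a dim one of RPL12, a protein of the base of the stalk that recruits elongation factors. It ranged from -0.33 to 0.19 with a median of -0.04 with the HF diet, and from -0.34 to 0.64 with a median of 0.22 with the LF diet. All 24 pigs fed the HF diet lay below the median of those fed the LF diet, and the log2 FC was -0.24 ± 0.06 (SE, P-BH of 0.046, limma). The largest falls at the unadjusted cut-off were those of a dim RPS23 probe (log2 FC of -0.47 ± 0.16, SE), a dim RPL14 probe (-0.42 ± 0.13), a second dim RPS23 probe (-0.38 ± 0.10) and a dim RPL11 probe (-0.25 ± 0.07), with P-BH from 0.053 to 0.15 (limma). RPS23 lies at the decoding centre, and RPL11 forms a complex with RPL5 and the 5S RNA. The RPS23 probes were among the faintest of all members (levels of -2.69 and -2.63) and were well above background on 46 and 47 arrays. The brightest RPS23 probe was at 9.19, and the other 6 probes of this gene did not pass.

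The other 4 called probes each had a log2 FC of -0.15, and their P-BH were between 0.105 and 0.20 (limma). They belonged to RPL23 (8.12 ± 0.17 with the HF and 8.27 ± 0.14 with the LF diet, SD, n = 24), RPL14, RPL12 and RPL3, which shapes the centre where peptide bonds form. Under 13 alternative settings each, the call was kept in 10 for RPL23, 7 for RPL14, 4 for RPL12 and 8 for RPL3. RPL14 was thus called for both factors, and its brightest probe had a median of 7.65 with the HF diet and of 7.76 with the LF diet. The values above 0 farthest from it were those of the RPL35 dim probes (0.28 and 0.25) and of both RPL13A probes (0.23 and 0.23), none of which passed.

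A small downward shift was seen over most members. Of 278 member probes, 255 (91.7%) had a diet effect below 0, against 55.2% of all tested probes, with medians of -0.065 and -0.014. The share was 97.8% for bright probes and 83.7% for dim probes. Brighter probes were also lower over the whole array, since among all 4048 tested probes with a mean level of 5 or more, 63.5% were below 0 with a median of -0.03. The median level of the 278 probes was 7.38 ± 0.09 (SD, n = 24) with the HF diet, from 7.25 to 7.64, and 7.45 ± 0.13 (SD, n = 24) with the LF diet, from 7.23 to 7.66, so that the diets overlapped and differed by less than the SD. The median diet effect of member probes was -0.08 on the first scan day and -0.06 on the second. It was -0.03 after quantile normalization (all tested probes, -0.007) and -0.03 after normexp background correction (all tested probes, -0.03), so that its size and its distance from the other probes depended on the processing.

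**Figure D5:**
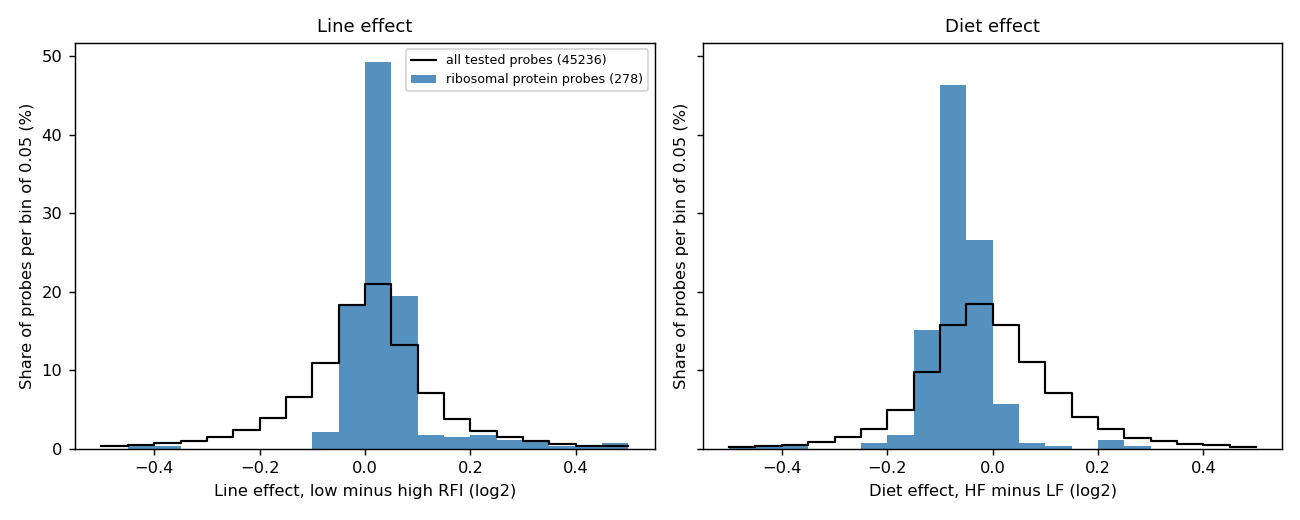
Distribution of line effects (left) and diet effects (right) in bins of 0.05 log2 units from -0.5 to 0.5, as a share of probes in percent, for the 278 ribosomal protein probes (blue bars) and all 45236 tested probes (black line). The bars for diet lie mostly below 0 (255 of 278 probes), and those for line are centred at 0.03.

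Paralogues, copies of a ribosomal protein gene that are often expressed in few tissues, were set beside their parent genes. RPL3L, RPL7L1, RPL10L, RPL22L1, RPL26L1, RPL36AL and RPS27L were on the array with 1, 4, 1, 1, 5, 3 and 1 tested probes, and RPL39 and RPL39L were not among the members. None of these paralogues passed the line cut-offs, with line effects from -0.05 to 0.09, and none passed those for diet. Their parents RPL3, RPL7, RPL10, RPL22, RPL26, RPL36A and RPS27 had line effects from -0.07 to 0.06, and RPL3 passed for diet (log2 FC of -0.15). RPL3L, known from striated muscle, gave a level of 7.85 and a diet effect of -0.13, below the fold cut-off. Whether its probe, and that of RPL10L, read the parent mRNA was not tested.

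Other genes of translation were counted on the brightest probe of each gene. Among ribosomal proteins whose names lie outside RPL and RPS with a digit (such as RPLP0, RPLP1, RPLP2, RPSA and FAU), 0 of 7 passed for line and 1 for diet, FAU, with a log2 FC of -0.14 (P-BH of 0.097, limma). Their median effects were 0.03 for line and -0.075 for diet. Of 14 elongation factors and related mRNAs, EEF1A1 was higher in the low RFI line (log2 FC of 0.15, P-BH of 0.115, limma) and EIF4B was higher with the HF diet (0.19, P-BH of 0.149). Of 14 tested genes of ribosome assembly and ribosomal RNA synthesis, POLR1A was lower with the HF diet (-0.20, P-BH of 0.20, limma) and 0 passed for line. Of 10 tested genes of the mTOR branch, 0 passed for line or diet. Among markers of other liver cells, KRT7 of bile ducts was lower in the low RFI line (log2 FC of -0.35, P-BH of 0.108, limma), with the mean of the 4 bile duct markers between -1.54 and 0.13 in the low RFI line and between -1.74 and 0.004 in the high RFI line. The bile duct markers did not share a direction, since KRT19 (-0.24) and EPCAM (-0.09) were also below 0 whereas SOX9 was above it (0.40, P-BH of 0.34, limma). APOA1 of hepatocytes was higher (0.15, P-BH of 0.121, limma), and 0 of 8 markers of T and NK cells, 0 of 3 of B cells, 0 of 6 of macrophages, 0 of 5 of endothelium, 0 of 5 of stellate cells, 0 of 3 of red blood cells and 0 of 4 of dividing cells passed for line or diet. Line effects were below 0 for all 6 macrophage markers (median of -0.19), and with the LF diet alone CSF1R (log2 FC of -0.34, P-BH of 0.25, limma) and AIF1 (-0.30, P-BH of 0.24) were lower in the low RFI line. The mean of these 6 markers with the LF diet lay between 2.34 and 3.14 in the low RFI line and between 2.61 and 3.69 in the high RFI line. KRT7 passed for line with the HF diet (log2 FC of -0.51, P-BH of 0.21, limma) and not with the LF diet (-0.19, P-BH of 0.83). The part of these cell markers in the results was not tested.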

How the data were processed

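Liver RNA of 48 pigs was hybridised to a custom porcine 8×60K Agilent array in a single colour (Cy3), and pigs were slaughtered at about 132 days. The authors deposited the scanner output, in which signals are intensities per spot (Feature Extraction 10.7.3.1, with its own background subtraction and spot flags), and a table of log2 values. The deposited log2 table held 37379 probes and equalled the log2 of the median signal minus a constant per array, as checked on the files (SD of the difference at most 2.24e-07). The authors' notes name R 2.10.0.

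Here, log2 of the processed signal was taken, 483 outlier spots were left out (0 spots were saturated), spots of 1 probe were averaged, and the 45236 of 60305 probes detected above background in 12 or more pigs were kept, after which each array was set to a median of 0. Line, diet and their interaction were fitted over all tested probes with limma 3.58.1 in R 4.3.3 (prior degrees of freedom 2.80), following the two-way ANOVA and cut-offs of the methods, and P was adjusted by Benjamini-Hochberg. The fit was tested on simulated, normally distributed values with the same spread in both lines and line changes placed in the less variable probes. Values in 2 sets, as for RPL38, or of unequal spread, as for RPL6, were not simulated. The 6 slides of 8 arrays held 2 arrays of each group, and the 2 scan days 24 arrays. Precision is limited by how many arrays there are.

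Members and lists were chosen with earlier results of these data known. Probes were named by rule: genes named before (RPL6, RPL14, RPL35, RPL38, RPS18), members with the most probes, largest called effects of line and diet, largest effects on the brightest minus dimmest probe, paralogues, and the brightest and faintest members. RPL23, RPL13A, RPS21 and the genes of the other lists were named after their values were seen. Alternatives were other centrings, background corrections, filters, the deposited table, slide as a block, each scan day, other models and 1 value per gene. Probe sequences came from the scanner files, which give no genome position. Single values of a few genes are not reported here.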

Additional observations from a re-analysis of the deposited data

How the results depend on the processing

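For line, 20 member probes were called higher under the other settings run on single probes, apart from 19 at a P-BH under 0.05, 19 on the first scan day and 18 on the second; with 1 value per gene, 2 of 79 were called from the brightest probe and 5 from the mean over probes. The 1 probe called lower became 0 on the first scan day and with either value per gene, and 2 on the second scan day. The 25 line results on single probes and on brightest minus dimmest probes kept their direction and call in 286 of 286 values outside the scan days, and in 39 of 50 within a day, where single probes were judged at the unadjusted cut-offs. At a P-BH under 0.05, RPS25 was not called. With the HF diet, 13 higher probes became 20 after quantile normalization, 7 at a P-BH under 0.05, and 2 and 8 on the 2 scan days; with the LF diet, 17 became 6 and 11. The 4 genes whose brightest minus dimmest probe differed by line became 0 and 2 on the 2 days, each with 24 pigs. For the interaction, 1 probe was called on the second day. For diet, the 9 lower probes became 1 at a P-BH under 0.05, 5 with normexp correction, 5 with the deposited log2 values, 4 on the first scan day, 2 with the brightest probe of each gene and 4 with the mean; 0 higher became 1 with quantile normalization, 2 with normexp correction, 2 with the median signal, 1 with the deposited values and 2 on the second day. At the unadjusted cut-offs, diet results on single probes kept their call in 79 of 96 values outside the scan days and in 6 of 18 within a day, with no change of direction. Apart from the smaller number of pigs or values, the cause of these changes was not tested. No paired analysis was possible because the labels give no replicate numbers that the groups have in common. The signal was well above background on 46 and 47 of 48 arrays for the RPS23 probes called for diet.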
